A study of Mus musculus with 12 samples.

Results

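Interleukin-1 (IL-1) cytokines and their receptors were read in mouse ear skin 4 h after a single topical dose of imiquimod (IMQ) cream and in untreated ear skin. The genes are Il1a, Il1b, Il1rn, Il1r1, Il1r2 and Il18, chosen by name, and all 10 of their probes were read among 56605 probes on the array. Of these 10 probes, 9 passed the signal filter, which kept 37125 probes, and 1 probe of Il1b did not.

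RNA of whole ear skin of C57BL/6J mice was hybridised to 12 single-colour 60-mer arrays, each with 200 ng of RNA pooled from 6 to 8 mice. The treated mice received 62.5 mg of cream containing 5% IMQ, a ligand of the receptor TLR7, and the arrays cover Tlr7-/-, Tlr9-/-, Tlr7-/-Tlr9-/-, Card14-/- and wild-type (WT) mice. The IMQ arrays number 2 each for Tlr7-/-Tlr9-/- and Card14-/- and 1 each for Tlr7-/-, Tlr9-/- and WT, and each of the 5 genotypes had 1 untreated array. TLR9 recognises unmethylated DNA, and CARD14 is an adaptor that links receptors of skin epithelial cells to NF-kB. The labels name the genotypes and give no details of the alleles. No group received cream without imiquimod, so effects of imiquimod, cream base, handling and time cannot be told apart.

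The cytokines IL-1α and IL-1β both bind the receptor IL1R1, which recruits the adaptor MYD88 and leads to NF-kB activation. IL-1β and IL-18 are made as inactive precursors that inflammasome caspases cut, whereas the IL-1α precursor is active as it is and is stored in keratinocytes. The pathway is held back by IL1RN, a secreted antagonist of IL1R1, and by IL1R2, a decoy receptor that binds IL-1 without signalling. In skin these cytokines recruit neutrophils and induce chemokines in keratinocytes and fibroblasts.

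The arrays gave 60.1% to 65.7% of spots well above background and 0 saturated spots. Before normalisation, the 75th percentile of signal ran from 527 to 779 on IMQ arrays and from 1070 to 1236 on untreated arrays. Tlr7 read 4.02 to 5.85 (log2 signal) on the 5 arrays of Tlr7-deficient mice, against 7.36 to 8.12 on the 7 others, and Card14 read 9.63 to 9.89 on its 3 knockout arrays, against 10.83 to 11.65 on the 9 others. Tlr9 read 10.95 to 11.33 on the 5 arrays labelled as lacking it, against 11.05 to 11.39 on the others, so its only probe did not separate that label, and no source used here says whether it lies in the deleted stretch. The untreated WT array stood apart in Hmox1, at 9.41, against 12.91 to 13.63 on the other arrays. Slide 2 held only the IMQ arrays of 2 genotypes, Tlr7-/-Tlr9-/- and Card14-/-, and slide 1 held the rest, so in those 2 genotypes slide and treatment cannot be told apart.

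The probe sequences show where each signal was read, because several genes had probes that gave different answers. The labelling started from the poly(A) tail. On mm9, the build of the array files, the 3 Il1b probes lie on the minus strand of chromosome 2: A_51_P212782, the downstream probe, at chr2:129190347-129190406; A_66_P114500, the upstream probe, at chr2:129190880-129190939; and A_55_P2720183, the far upstream probe, at chr2:129195465-129195524. The upstream probe starts 533 bases and the far upstream probe 5118 bases before the downstream one. The first 2 are assigned to the RefSeq transcript of Il1b in the array files, and the far upstream probe to no RefSeq transcript. The 2 Il1r2 probes lie on the plus strand of chromosome 1, A_55_P2804650, the downstream probe, at chr1:40182006-40182066, and A_52_P417890, the upstream probe, at chr1:40168971-40171918. The coordinates of the upstream Il1r2 probe span 2948 bases for a 60-base probe, so it crosses a splice junction. Whether a probe lies in coding sequence or a UTR was not annotated on this build here. The first 30 bases are shown of the downstream probes and all 60 of the others, 5′ to 3′ on the transcript strand.
Il1b downstream probe: aggttcctataatatggatgagaattttta
Il1b upstream probe: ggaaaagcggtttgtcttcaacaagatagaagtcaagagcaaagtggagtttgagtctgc
Il1b far upstream probe: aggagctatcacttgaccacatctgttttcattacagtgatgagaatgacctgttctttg
Il1r2 downstream probe: ccaagctacggactgacaaccaggaattcc
Il1r2 upstream probe: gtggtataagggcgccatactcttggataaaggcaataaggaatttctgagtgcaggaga

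Il1b, the gene of IL-1β, rose after IMQ on its downstream probe, in all 5 genotypes. The probe read 6.83 in IMQ Tlr7-/-, 7.84 in IMQ Tlr9-/-, 7.14 and 7.09 in IMQ Tlr7-/-Tlr9-/-, 6.90 and 7.02 in IMQ Card14-/- and 7.55 in IMQ WT skin. The untreated arrays read 5.97 in Tlr7-/-, 4.72 in Tlr9-/-, 5.42 in Tlr7-/-Tlr9-/-, 5.17 in Card14-/- and 6.80 in WT. Every IMQ array lay above every untreated array, the closest being IMQ Tlr7-/- at 6.83 and untreated WT at 6.80. The genotype means were 7.26 ± 0.42 after IMQ and 5.61 ± 0.80 untreated (log2 signal, SD, n = 5 genotypes each), a difference of 1.65 ± 0.35 (SE) or 3.13-fold, with an adjusted p of 0.0261 (limma, genotype as a block, Benjamini-Hochberg over all probes). Of all probes tested, 24.1% passed this threshold, 10.6% higher and 13.6% lower after IMQ, beside which 2 of the 9 member probes passed, both higher. In bulk skin, more cells of a type and more RNA per cell cannot be told apart.

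The Il1b rise kept its sign on leaving out any genotype, whereas its call rested on the genotypes together. Leaving out Tlr7-/-, Tlr9-/-, Tlr7-/-Tlr9-/- or Card14-/- gave differences of 1.28 to 1.84 that no longer passed, with adjusted p of 0.0550, 0.0550, 0.0634 and 0.0578 in that order (limma). Without WT, whose untreated array was the highest, the rise was 1.87 with an adjusted p of 0.0456. Leaving out 1 genotype also lowered the share of all probes called, from 24.1% to between 2.37% and 20.5%. Over the 3 genotypes measured wholly on slide 1 the difference was 1.58 with an adjusted p of 0.106. With normexp background correction in place of the scanner's processed signal the rise was 0.90, with an adjusted p of 0.0112.

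The genotypes differed more in untreated skin than after IMQ. Untreated Il1b signal ran from 4.72 to 6.80, a wider range than the 6.83 to 7.84 of the genotype means after IMQ. The lowest, untreated Tlr9-/-, lay near 4.11, the lowest signal of a probe well above background on that array. With normexp the 2 ranges were closer in width, at 6.47 to 7.41 on untreated arrays and 7.44 to 8.17 on IMQ arrays. The responses, IMQ minus untreated, were 0.87 in Tlr7-/-, 3.12 in Tlr9-/-, 1.70 in Tlr7-/-Tlr9-/-, 1.79 in Card14-/- and 0.75 in WT. The largest response belonged to the genotype with the lowest untreated signal and the smallest to the one with the highest. That order is partly built in, because the untreated signal is subtracted in the response and was read on 1 array per genotype.

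**Figure D1:**
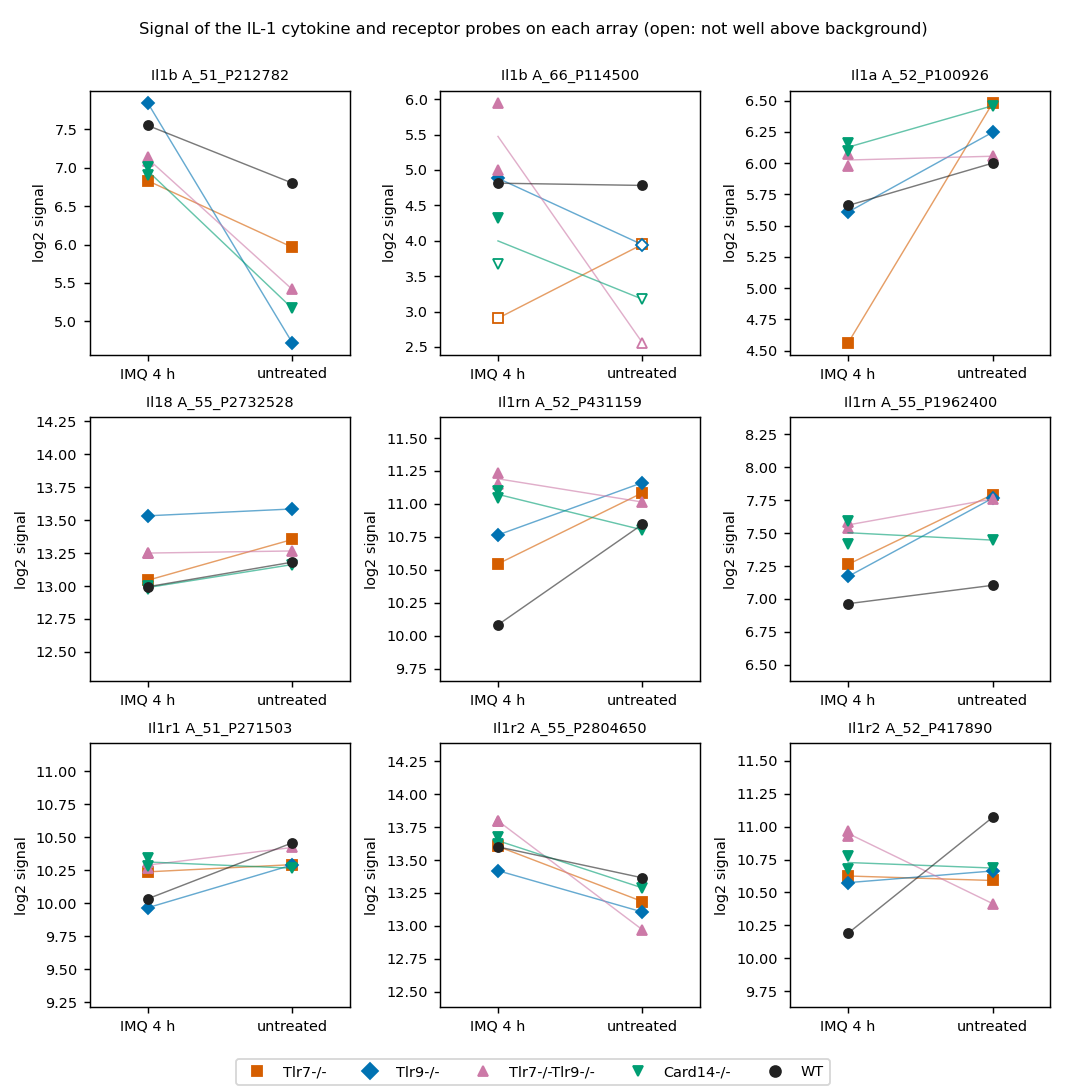
Log2 signal of 9 probes of the 6 genes, with the IMQ arrays left and the untreated arrays right in each panel. Points are arrays, open where the probe was not well above background, and lines join genotype means. On the Il1b downstream probe all IMQ arrays, 6.83 to 7.84, lie above all untreated arrays, 4.72 to 6.80.

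The upstream Il1b probe gave a dim signal and no call in the average response. It was well above background on 5 of 7 IMQ arrays and 1 of 5 untreated arrays. After IMQ it read 2.90 in Tlr7-/- (not well above background), 4.88 in Tlr9-/-, 5.94 and 5.00 in Tlr7-/-Tlr9-/-, 4.32 and 3.68 in Card14-/- (the second not well above background) and 4.81 in WT. Untreated skin read 4.78 in WT, and the other 4 genotypes, from 2.56 to 3.95, were not well above background. The average difference was 0.73 ± 0.54 (SE), with an adjusted p of 0.337 (limma), and over the slide 1 genotypes it was -0.025. The repeat IMQ arrays of this probe differed by 0.94 in Tlr7-/-Tlr9-/- and 0.64 in Card14-/-, against 0.05 and 0.12 on the downstream probe.

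In Tlr7-/-Tlr9-/- skin the upstream probe was at least 3.59-fold higher after IMQ than in untreated skin. Here "at least" sets the untreated array at the lowest signal of a probe well above background. The probe was called on the measured difference of 2.92, with an untreated reading not well above background (adjusted p = 0.0425, limma). The difference behind that call was 0.65 with normexp, under the size limit of 1, and 1.08 in the deposited table, with an adjusted p of 0.0553, so it was not called in either. In Tlr9-/- the bound was at least 1.71-fold higher, and the measured difference of 0.94 had an adjusted p of 0.317 (limma). The far upstream Il1b probe was not well above background on any of the 12 arrays, with log2 signals of 1.88 to 2.14, and was not tested.

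The upstream Il1b probe was well above background in both IMQ and untreated skin in WT alone. There its response was 0.03, against 0.75 on the downstream probe. In Tlr7-/-Tlr9-/- the bound of at least 3.59-fold on the upstream probe lay above the 3.25-fold on the downstream probe, the other order than in WT. The upstream repeat arrays there differed by 0.94. In Tlr7-/-, Tlr9-/- and Card14-/- the responses on the 2 Il1b probes could not be compared. Over all 5 genotypes, readings near background included, the downstream response was larger by 0.91 ± 1.34 (SD), with p = 0.25 by an exact two-sided sign-flip permutation test. It was larger in 4 of 5 genotypes, as with 75th percentile scaling (0.77). With normexp (0.71) and in the deposited table (0.88) it was larger in 5 of 5. Both gave p = 0.0625 by the exact sign-flip permutation test, the smallest p possible, or 0.09375 adjusted over the 3 probe pairs. In Tlr7-/-Tlr9-/- the responses were then 0.87 downstream and 0.65 upstream with normexp, and 1.18 and 1.08 in the deposited table. The other order there thus did not hold with either.

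**Figure D2:**
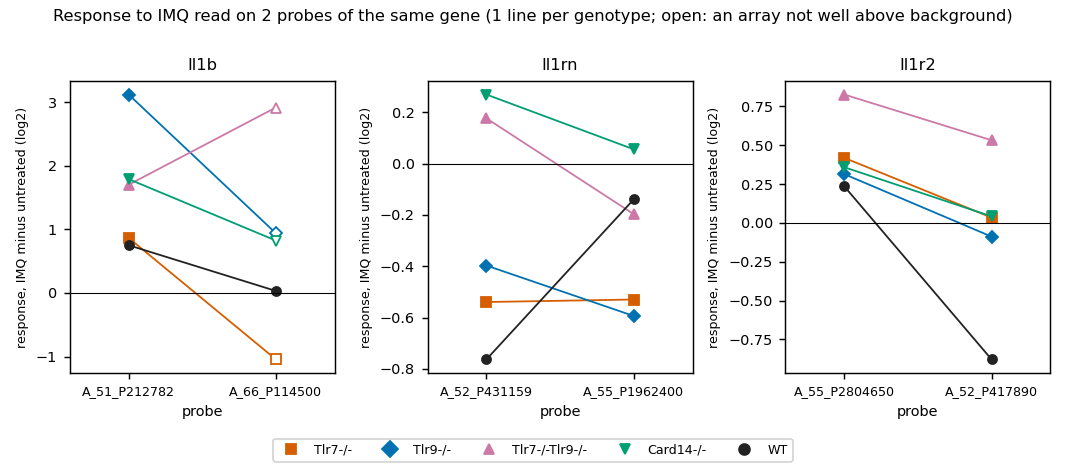
Response to IMQ (log2, IMQ minus untreated) read on 2 probes of Il1b, Il1rn and Il1r2, with 1 line per genotype and open points where an array behind the response was not well above background. For Il1r2 all 5 lines run down from the downstream probe A_55_P2804650 to the upstream probe A_52_P417890, and for Il1b only the WT line joins 2 filled points.

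Il1a, the gene of IL-1α, is a neighbour of Il1b on chromosome 2, with its probe on mm9 at chr2:129125994-129126053, 64.4 kb from the downstream Il1b probe. It read 4.56 in IMQ Tlr7-/-, 5.61 in IMQ Tlr9-/-, 6.08 and 5.97 in IMQ Tlr7-/-Tlr9-/-, 6.09 and 6.16 in IMQ Card14-/- and 5.66 in IMQ WT skin. Untreated skin read 6.48, 6.25, 6.06, 6.46 and 6.00 in the same order of genotypes. The genotype means were lower after IMQ in all 5 genotypes, and the groups overlapped. The average difference was -0.65 ± 0.28 (SE), with an adjusted p of 0.133 (limma), so it did not pass the test. With genotype and slide as blocks on all 12 arrays it was -0.97 and passed, with an adjusted p of 0.0260 (limma). That fit takes the difference from the slide 1 genotypes alone, and its error counts repeat arrays as separate. The slide 1 genotypes with 1 value per group gave the same -0.97, with an adjusted p of 0.116. Tlr7-/- stood apart with a response of -1.92, against -0.64 in Tlr9-/-, -0.03 in Tlr7-/-Tlr9-/-, -0.33 in Card14-/- and -0.34 in WT. The IMQ Tlr7-/- reading of 4.56 lay near 4.14, the lowest signal of a probe well above background on that array. With normexp background correction Il1a read 6.55 in IMQ and 7.38 in untreated Tlr7-/- skin.

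The average differences of the 2 neighbouring genes thus had opposite signs in the same arrays, though that of Il1a did not pass the test. Their starts carry the sequences below, the 250 bases before each gene's start from RefSeq (GRCm38.p6, minus strand of chromosome 2), at chr2:129371140-129371389 for Il1b and chr2:129309973-129310222 for Il1a. Capitals mark matches, on either strand, to the letters searched: TATAAA for a TATA box, TGANTCA for AP-1, TTNNGNAA for C/EBP and the standard NF-kB consensus, none of them overlapping here.
Il1b: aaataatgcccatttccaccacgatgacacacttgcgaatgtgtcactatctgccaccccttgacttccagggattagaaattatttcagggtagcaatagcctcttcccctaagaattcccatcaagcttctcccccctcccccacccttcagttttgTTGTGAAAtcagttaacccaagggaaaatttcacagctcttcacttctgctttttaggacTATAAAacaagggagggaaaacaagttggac
Il1a: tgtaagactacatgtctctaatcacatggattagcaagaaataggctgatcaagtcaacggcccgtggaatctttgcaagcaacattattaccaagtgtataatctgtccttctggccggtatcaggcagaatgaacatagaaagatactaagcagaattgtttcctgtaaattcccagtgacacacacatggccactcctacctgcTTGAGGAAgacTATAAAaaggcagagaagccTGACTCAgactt
Both windows hold TATAAA, starting at -31 in Il1b and -32 in Il1a, which 12.4% of the 32851 RefSeq windows of this length hold. Both also hold TTNNGNAA, held by 36.9% of windows. The Il1a window alone holds TGANTCA, held by 6.75% of windows, and neither holds the NF-kB consensus, held by 7.25% of windows. These matches describe letters only, and a missing match says nothing about the factor beyond this window.

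Il18, the gene of the other inflammasome-processed cytokine, did not pass the test. It read 13.04 in IMQ Tlr7-/-, 13.53 in IMQ Tlr9-/-, 13.25 on both IMQ Tlr7-/-Tlr9-/- arrays, 13.00 and 12.98 in IMQ Card14-/- and 12.99 in IMQ WT skin, against 13.35, 13.58, 13.27, 13.16 and 13.18 in untreated skin of the same genotypes in that order. All 5 genotypes were lower after IMQ, by a mean of -0.15 ± 0.08 (SE), with an adjusted p of 0.203 (limma). Tlr9-/- held the highest Il18 signal in both IMQ and untreated skin.

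Il1rn, the receptor antagonist, showed a pattern that ran with the slides. A_52_P431159, its downstream probe (chr2:24206125-24206184 on mm9, plus strand), read 10.55 in IMQ Tlr7-/-, 10.76 in IMQ Tlr9-/-, 11.15 and 11.23 in IMQ Tlr7-/-Tlr9-/-, 11.04 and 11.10 in IMQ Card14-/- and 10.08 in IMQ WT skin. Untreated skin read 11.08 in Tlr7-/-, 11.16 in Tlr9-/-, 11.01 in Tlr7-/-Tlr9-/-, 10.80 in Card14-/- and 10.85 in WT. The groups overlapped, with the lowest signal in IMQ WT skin. The responses were -0.54 in Tlr7-/-, -0.40 in Tlr9-/- and -0.76 in WT, whose arrays all lay on slide 1. They were 0.18 in Tlr7-/-Tlr9-/- and 0.27 in Card14-/-, whose IMQ arrays lay on slide 2. The genotype means were 10.73 ± 0.44 after IMQ and 10.98 ± 0.15 untreated (SD, n = 5 each), a difference of -0.25 ± 0.18 (SE) with an adjusted p of 0.324 (limma). Within slide 1 the difference was -0.57, with an adjusted p of 0.0395 (limma). With genotype and slide as blocks the same estimate had an adjusted p of 0.00206, with repeat arrays counted as separate. Genotype and slide cannot be told apart as the source of the other sign.

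The upstream Il1rn probe, A_55_P1962400 (chr2:24205094-24205153), had responses of -0.53 in Tlr7-/-, -0.59 in Tlr9-/-, -0.20 in Tlr7-/-Tlr9-/-, 0.06 in Card14-/- and -0.14 in WT. Its average difference was -0.28 ± 0.12 (SE), with an adjusted p of 0.132 (limma). With genotype and slide as blocks, and repeat arrays counted as separate, it was -0.42 and passed, with an adjusted p of 0.0192 (limma). The slide 1 genotypes alone gave the same -0.42, with an adjusted p of 0.0857. The 2 probes differed in response by 0.03 ± 0.39 (SD, n = 5), p = 1 by an exact two-sided sign-flip permutation test, whose smallest p with 5 genotypes is 0.0625, with a sign that turned under 2 other normalisations. They disagreed most in WT, at -0.76 on the downstream and -0.14 on the upstream probe.

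Among the receptors, Il1r1, the signalling receptor of IL-1, read 9.97 at the lowest, 10.26 at the median and 10.34 at the highest of the 7 IMQ arrays. Untreated skin read 10.29 in Tlr7-/-, 10.29 in Tlr9-/-, 10.42 in Tlr7-/-Tlr9-/-, 10.27 in Card14-/- and 10.46 in WT. The ranges overlapped. The average difference was -0.18 ± 0.10 (SE), with an adjusted p of 0.211 (limma), and 4 of 5 genotypes were lower after IMQ. With genotype and slide as blocks, and repeat arrays counted as separate, it was -0.27 and passed, with an adjusted p of 0.0394 (limma). The slide 1 genotypes alone gave the same -0.27, with an adjusted p of 0.155. Its probe lies on mm9 at chr1:40372667-40372726, 191 kb from the downstream probe of Il1r2.

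Il1r2, the decoy receptor, rose on its downstream probe and not on its upstream probe. The downstream probe read 13.60 in IMQ Tlr7-/-, 13.42 in IMQ Tlr9-/-, 13.79 and 13.80 in IMQ Tlr7-/-Tlr9-/-, 13.62 and 13.68 in IMQ Card14-/- and 13.60 in IMQ WT skin, against 13.18, 13.11, 12.97, 13.29 and 13.36 in untreated skin of those genotypes in that order. All IMQ arrays lay above all untreated arrays. The genotype means were 13.61 ± 0.13 after IMQ and 13.18 ± 0.15 untreated (SD, n = 5 each), a difference of 0.43 ± 0.11 (SE) or 1.35-fold, with an adjusted p of 0.0371 (limma). Leaving out any of the 5 genotypes gave 0.33 to 0.48, with adjusted p of 0.0626 to 0.100, and slide 1 genotypes alone gave 0.32 with an adjusted p of 0.0739.

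On the upstream Il1r2 probe the genotype means were 10.61 ± 0.28 after IMQ and 10.69 ± 0.24 untreated, a difference of -0.07 ± 0.20 (SE), with an adjusted p of 0.806 (limma). In WT it read 10.19 after IMQ and 11.07 untreated, the lowest and the highest of all 12 arrays. Without WT the sign turned, to 0.13. The response on the downstream probe exceeded that on the upstream probe in 5 of 5 genotypes, by 0.50 ± 0.34 (SD, n = 5), with p = 0.0625 by the exact sign-flip permutation test, the smallest p possible, and 0.1875 adjusted over the 3 probe pairs. The Il1r2 rise is therefore a result of 1 probe.

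Markers of the cell types of skin were read beside the Il1b rise, each gene on its probe with the highest mean. Of the 24261 genes tested in this way, 24.3% were called in the average response, 9.9% higher and 14.4% lower after IMQ. Of 10 neutrophil markers tested 1 rose and 0 fell. It was Retnlg, at least 3.37-fold higher, and the log2 of the summed marker signal was 14.88 to 15.69 on IMQ arrays and 14.97 to 15.22 on untreated arrays. Such sums follow the brightest genes, here Csf3r, with means of 15.07 after IMQ and 14.84 untreated. The next brightest neutrophil marker, S100a9, had means of 11.72 and 11.45. Ngp and Ltf did not pass the signal filter. Of 14 monocyte and macrophage markers 4 rose, among them Cd14 (0.76), and 1 fell, Ccr2 (-0.97), with summed signals of 16.53 to 17.03 after IMQ and 16.41 to 17.01 untreated. Of 8 Langerhans and dendritic cell markers 4 rose, among them Cd207 (1.20), and 1 fell, Zbtb46 (-0.82, above background on 3 of 7 IMQ arrays and 5 of 5 untreated arrays), with summed signals of 15.37 to 15.97 after IMQ and 15.31 to 15.52 untreated. Of 9 keratinocyte markers 1 rose, Dsg3 (0.61), and 1 fell, Krt1 (-0.64), with summed signals of 19.91 to 20.07 after IMQ and 19.99 to 20.11 untreated. Among 8 markers of T cells there were 6 rises and 1 fall, with summed signals of 14.25 to 14.71 after IMQ and 14.16 to 14.42 untreated. Of 6 endothelial markers 4 rose, Pecam1 (0.38), Cdh5 (0.55), Cldn5 (0.81) and Esam (0.70), and 1 fell, Tek (-0.39). Their summed signals were 12.45 to 13.36 after IMQ and 11.89 to 12.44 untreated, so the IMQ arrays lay above the untreated arrays, which held for none of the other cell type lists. Mast cell markers, 7 in number, had 0 calls, with sums of 14.46 to 15.31 after IMQ and 14.25 to 15.23 untreated. Of 6 fibroblast markers 2 fell and 0 rose, with sums of 17.41 to 18.67 after IMQ and 17.90 to 19.12 untreated. Of 5 skeletal muscle markers 2 fell and 0 rose (17.79 to 18.19 after IMQ, 17.84 to 18.19 untreated), and of 4 adipocyte markers 1 rose and 0 fell (14.29 to 15.08 after IMQ, 14.18 to 14.69 untreated). The part of these cells in the Il1b, Il1a and Il1r2 values was not tested.

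The question of whether the response depends on TLR7 was asked by comparing the 2 Tlr7-deficient genotypes with the 3 others. None of the 9 member probes passed, all with an adjusted p of 1.00 (limma on 5 differences), and 0 of all probes were called (0%), with 1055 at an unadjusted p under 0.05. The Il1b downstream probe differed by -0.60 ± 0.74 (SE), Il1a by -0.54 ± 0.57 and the Il1r2 downstream probe by 0.32 ± 0.20. For Il1b and Il1a the standard error exceeded the difference, so a dependence of that size was not detectable with 5 genotypes.

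Each genotype was also compared within a fit of the 10 group means, where a call needed an adjusted p under 0.05 and a change of 1 or more in log2 signal. The error of that fit has 2 residual degrees of freedom, which come from the repeat IMQ arrays. No source used here says whether those repeats share a pool. The p-values therefore measure only the spread between arrays, with groups of 1 array taken to vary as much as the repeats.

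In Tlr7-/- skin 1 of 9 member probes was called, Il1a at -1.92 (adjusted p = 0.0103, limma), beside 7.29% of all probes. In Tlr9-/- skin 1 of 9 was called, the Il1b downstream probe at 3.12 or 8.70-fold (adjusted p = 0.00823), beside 9.76% of all probes. In Tlr7-/-Tlr9-/- skin 2 of 9 were called, beside 5.5% of all probes. They were the downstream Il1b probe at 1.70 (adjusted p = 0.0145) and the upstream one at 2.92, with an untreated reading not well above background. In Card14-/- skin 1 of 9 was called, the Il1b downstream probe at 1.79 (adjusted p = 0.0130), beside 3.78%. In WT skin 0 of 9 were called, beside 15.6% of all probes, with Il1b at 0.75 and the Il1r2 upstream probe at -0.88 both under the size limit. Leaving out any of the 4 repeat arrays ended these calls, except that of Tlr9-/- without a Tlr7-/-Tlr9-/- array. Those fits had 1 residual degree of freedom and called fewer probes over the whole array too. The loss is therefore not particular to these members. With normexp only the Tlr9-/- call remained, at 1.69.

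**Figure D3:**
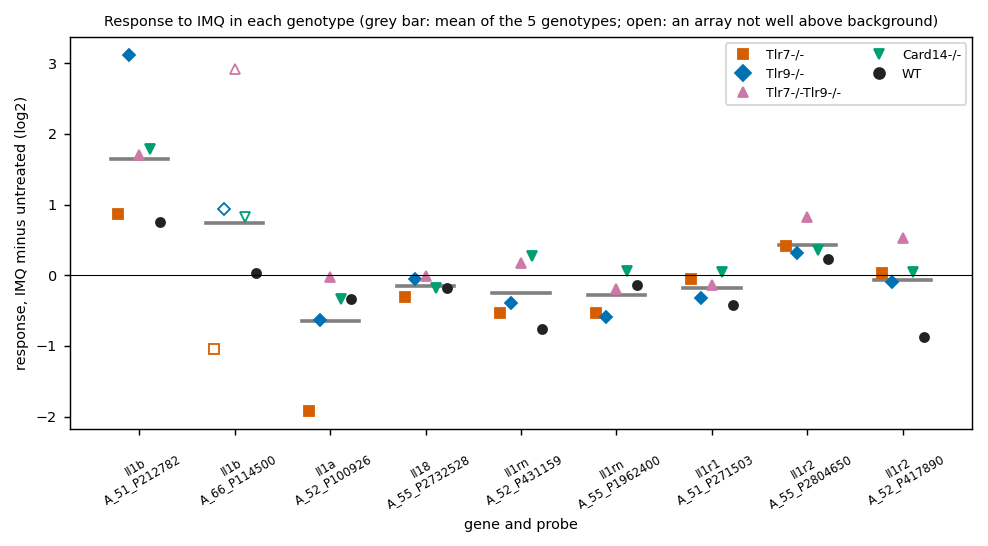
Response to IMQ (log2, IMQ minus untreated) of the 9 probes in each genotype, with the mean of the 5 genotypes as a grey bar and open points where an array behind the response was not well above background. Il1b on its downstream probe lies above 0 in all 5 genotypes, from 0.75 in WT to 3.12 in Tlr9-/-, and Il1a lies below 0 in all 5, with -1.92 in Tlr7-/- the lowest.

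The responses of the knockouts were then compared with the WT response, and these 4 comparisons share the WT arrays. The Tlr7-/- response of Il1a was lower than the WT response by 1.58 (adjusted p = 0.0408, limma), the 1 member call beside 2.6% of all probes. Il1a read 4.56 in IMQ Tlr7-/- and 5.66 in IMQ WT skin, and 6.48 in untreated Tlr7-/- and 6.00 in untreated WT skin. The Tlr9-/- response of Il1b on the downstream probe was larger by 2.37, with an adjusted p of 0.0514, so 0 of 9 probes were called, beside 0.388% of all probes. The IMQ Tlr9-/- array differed from the IMQ WT array by 0.29, and the untreated Tlr9-/- array from the untreated WT array by -2.08.

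For Tlr7-/-Tlr9-/- the 1 call was the Il1r2 upstream probe, whose response exceeded that of WT by 1.41 (adjusted p = 0.0167, limma), beside 11.1% of all probes. The response was 0.53 in Tlr7-/-Tlr9-/- and -0.88 in WT. On the downstream probe the difference was 0.59, with an adjusted p of 0.0291, under the size limit. For Card14-/- 2 probes were called, beside 11.4% of all probes. They were the Il1b downstream probe, with a response 1.04 larger than in WT (adjusted p = 0.0215), and the Il1rn downstream probe, 1.03 larger (adjusted p = 0.0191). All 4 calls against WT were lost on leaving out any of the 4 repeat arrays. The calls of all other probes in these comparisons were lost as well, with 1 residual degree of freedom left. The Il1a call (-0.64 with normexp, -0.86 in the deposited table) and the Card14-/- calls of Il1b (0.35, 0.73) and Il1rn (0.95, 0.89) also fell under the size limit with those values.

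The parts of those Card14-/- differences lay on different sides. For Il1b, IMQ Card14-/- skin read 0.59 lower than IMQ WT skin and untreated Card14-/- skin 1.63 lower than untreated WT skin. The larger response thus lay in the lower untreated level, which is subtracted in it and was read on 1 array per genotype. For Il1rn the difference lay in the IMQ arrays, 0.99 higher in Card14-/- than in WT, against -0.04 in the untreated arrays. The upstream Il1rn probe differed by 0.20 in response. These Tlr7-/-Tlr9-/- and Card14-/- values set IMQ arrays of slide 2 against IMQ WT on slide 1.

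The 2 genotypes with repeat IMQ arrays shared slide 2 and were compared after IMQ. Between IMQ Card14-/- and IMQ Tlr7-/-Tlr9-/- 0 of 9 member probes were called, beside 1.06% of all probes. The lowest adjusted p was that of Il18, at 0.0867, with a difference of -0.26 (limma). The repeats of a genotype differed by less than 0.18 on every member probe except the upstream Il1b probe and, in Card14-/-, the far upstream Il1b probe.

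Genes around the pathway were read as 3 lists in the same way, with the shares called among all genes as given for the markers. Of 21 tested genes of the IL-1 receptor complex and its signalling 2 rose and 1 fell. Sigirr, a receptor that dampens IL-1 signalling, rose by 0.68 and Irak2, a kinase of the receptor complex, by 0.51. Il1rap, the co-receptor that IL1R1 needs, fell by 0.29. The list's median was -0.05 against -0.08 over all genes. Myd88 (0.23, adjusted p = 0.134) and Traf6 (0.71, adjusted p = 0.129, limma) were not called. The count depends on the probe used, since other probes of Traf6 (0.44, adjusted p = 0.0140), Irak3 (0.70, 0.0105), Map3k7 (0.63, 0.0132), Il1rl2 (0.43, 0.0290) and Ikbkg (-0.51, 0.0399) passed. The other Irak2 probes differed by 0.18 and 1.01 and the other Il1rap probe by -0.11, none of them called.

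Of 18 tested genes for processing, release and secreted inhibition 2 rose and 4 fell, with a median of -0.19. Besides Il1r2, Casp4, an inflammatory caspase, rose by 0.98. The falls were those of Pycard, the inflammasome adaptor (-0.60), P2rx7, the ATP channel upstream of the inflammasome (-0.56), Capn1, a calpain (-0.26), and Nlrc4, an inflammasome sensor. The size of the Nlrc4 fall was not ranked, since its probe was above background on 1 of 7 IMQ arrays and 5 of 5 untreated arrays. Pycard rose by 1.41 on its other probe (adjusted p = 0.0474, limma), so its direction depends on the probe. The other Capn1 probe also fell (-0.46, adjusted p = 0.0374, limma), whereas the other P2rx7 probes (-0.38 and -0.14) were not called. Gsdmd, not called on the probe used, fell on its other probe (-0.39, adjusted p = 0.0279, limma). Casp1, the caspase that cuts IL-1β, had a difference of -0.35 with an adjusted p of 0.0573. Nlrp3 and Nlrp6 did not pass the signal filter.

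Of 20 tested genes known to be induced by IL-1, 13 rose and 0 fell, with a median of 0.95. Among them were Ccl20, a chemokine (4.54), and Cxcl1, a neutrophil chemokine (4.02). Il6 also rose, and its difference of 2.40 was not ranked, since its probe was well above background on 7 of 7 IMQ arrays and 2 of 5 untreated arrays. These genes are also induced by other signals to NF-kB, so the count does not tell which. Cxcl2 and Csf3 did not pass the signal filter, and Cxcl5 was not called (-1.69, adjusted p = 0.0839). The untreated WT array read Cxcl5 highest, at 6.53. Among the called genes with another tested probe, Nfkbiz was called on that probe too (1.09). The other probes of Icam1 (0.14), Lcn2 (0.82) and Zc3h12a (0.85) were not called, so this count also depends on the probe used.

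**Figure D4:**
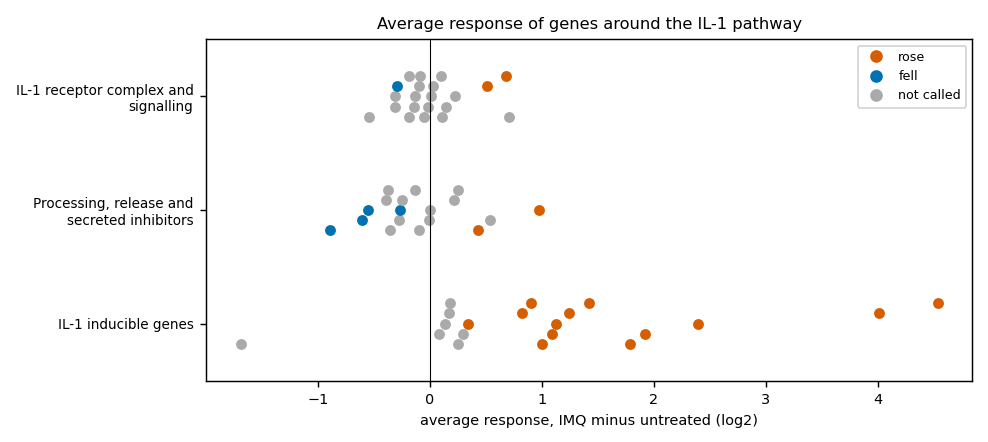
Average response (log2, IMQ minus untreated) of genes in 3 lists around the IL-1 pathway, where each point is a gene and its height within a list has no meaning. In the list of IL-1 inducible genes 13 of 20 points are called higher, with Ccl20 at 4.54 and Cxcl1 at 4.02, whereas most genes of the other lists lie near 0.

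The genes whose pattern over the 10 group means was most like that of each member are given as a description, chosen among 15743 genes well above background on all arrays, with arrays, slides and normalisation shared. Among those for Il1b were Rtf2 (r = 0.95) and Eif6 (0.94). For Il1r2 on its downstream probe they were Zfp36l3 (0.99), Senp6 (0.96) and Gm15408 (0.95). For Il1rn the closest was Cbr3 (0.99), for Il1r1 Dtymk (0.98), for Il1a Rbm18 (0.95) and for Il18 Gstm6 (0.95).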

How the data were processed

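Arrays were grouped by their labels, and slide and scan were taken from the file headers. The authors' scanner files hold intensity per spot, made by Agilent Feature Extraction 10.7.3.1 per the file headers (10.5.1.1 per the submitters' processing notes), as a processed signal after background subtraction. The authors also deposited a table of log2 values, which per the series' design text was background subtracted and normalised with limma; its columns had medians of 6.37 to 6.38, its scale and centring are otherwise unknown, and it served as an alternative.

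The processed signal was averaged over repeat spots, set on the log2 scale and quantile normalised with limma 3.58.1 (R 4.3.3, data.table, version 1.17.8). Left out were 235 probes with outlier flags, and kept were those called well above background on 2 or more arrays. Every probe was fitted with limma (lmFit, eBayes), two-sided, with Benjamini-Hochberg adjustment over all of them. The average response used 1 value per genotype and treatment, with 4 residual degrees of freedom. The Tlr7 comparison used 5 differences, with 3. The fit of the group means had 2. Fold bounds use the lowest signal of a probe well above background on the array. Of the probes, 32994 were named by accession and 10224 by symbol through RefSeq, and 13387 kept the file's name. The fits were tested on simulated data. Python 3.11.15, numpy 2.4.6, pandas 2.3.3 and matplotlib 3.10.9 were used. The number of arrays limits the precision.

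The members, gene lists and the rule for named genes were chosen with earlier results of these data known. The rule takes all probes of the 6 members, the 3 largest rises and falls among called genes of each list, and the 3 genes most like each member, of which 1 is not reported here. Other genes of a list were named after their values were seen. Alternatives were 75th percentile scaling, normexp background correction with an offset of 50, the deposited log2 values, other filters, 1 probe per gene, leaving out arrays or genotypes, and slide as a block.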

Additional observations from a re-analysis of the deposited data

Results flagged for a closer look

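In 4 cases the response of a knockout differed from that of WT by the test of that difference itself (limma, fit of the group means). Il1a responded by -1.58 relative to WT in Tlr7-/- (adjusted p = 0.0408). The upstream probe of Il1r2 responded by 1.41 relative to WT in Tlr7-/-Tlr9-/- (adjusted p = 0.0167). In Card14-/- the downstream probe of Il1b responded by 1.04 (adjusted p = 0.0215) and that of Il1rn by 1.03 (adjusted p = 0.0191) relative to WT. Of the 9 member probes, 1 was called in Tlr7-/-, 1 in Tlr7-/-Tlr9-/- and 2 in Card14-/-. Beside them 2.6%, 11.1% and 11.4% of all probes were called, in that order. All 4 calls were lost on leaving out any of the 4 repeat arrays. The calls of all other probes in these comparisons were lost as well, with 1 residual degree of freedom left. The calls of Il1a and Card14-/- also fell under the size limit with normexp and in the deposited table. All 4 share the single WT arrays, and the last 3 also set slide 2 against slide 1.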

How the results depend on the processing

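Over 378 recomputed values, 254 kept their direction and side of the threshold, or for a count lay within 1.5 times, and 5 reversed. The average response of Il1b was positive under all 17 alternatives, from 0.90 to 1.87, and called under 11. The count of member probes called in the average response, 2, was 0 with no signal filter, 0 to 1 on leaving out 1 genotype, 6 with genotype and slide as blocks (adding Il1a at -0.97, both Il1rn probes at -0.57 and -0.42 and Il1r1 at -0.27) and 1 on slide 1 genotypes. The blocked fit gave the same differences as the slide 1 genotypes, with an error that counts repeat arrays as separate. Over these alternatives 2.37% to 49.7% of all probes were called. Reversed were the upstream Il1b probe, -0.025 with slide as a block or on slide 1, the upstream Il1r2 probe, 0.13 without WT (leaving out 1 genotype gave -0.22 to 0.13), and the Il1rn probe difference, -0.10 by 75th percentile scaling and -0.012 with normexp. Leaving out 1 repeat array left 1 residual degree of freedom, and 0 member calls (0 to 1 for the Tlr9-/- response) in the group contrasts. Counts for Tlr7-/-, Tlr7-/-Tlr9-/- and Card14-/- responses were 0 with normexp, and 2 for Tlr7-/- by 75th percentile scaling. That for Tlr7-/-Tlr9-/- was 1 with the deposited table, no signal filter, a filter on all 12 arrays or 1 probe per gene. Against WT, Tlr7-/- and Card14-/- gave 0 with normexp or the deposited table, Card14-/- 1 and Tlr7-/-Tlr9-/- 2 by 75th percentile scaling, and Tlr7-/-Tlr9-/- 0 with 1 probe per gene. Tlr9-/- against WT gave 1, the Il1b downstream probe, with normexp, the deposited table, no signal filter, all 12 arrays or 1 probe per gene. The cause of these changes was not tested.

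Repeat numbers of Card14-/- and Tlr7-/-Tlr9-/- did not pair the arrays (correlation of deviations 0.03), and the replicate block left 0 member calls between them. The median of all probes moved from -0.07 to 0.01 between scalings.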
